A study of Mus musculus with 3 samples.

Results

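The aminoacyl-tRNA synthetases are the 37 genes, of 23421 gene symbols measured, that encode the cytosolic and mitochondrial enzymes listed by symbol for this description, 21 of them cytosolic and 16 mitochondrial. They were chosen by name and function, and *Lars2*, the mitochondrial leucyl enzyme, was singled out for its values, which are therefore given as a description. RNA-seq was done at embryonic day (E) 6.5 on embryos that the labels assign to the strain 129/SvEv, while the study describes the genetic background between embryos as not inbred, from intercrosses of tw18/+ mice, with 1 library each of wild-type, tw18/+ (1 mutant copy) and tw18/tw18 embryos. The tw18 chromosome carries a deletion on Chr 17 that removes *Ppp2r1a*, the gene of a scaffold subunit of the phosphatase PP2A. The labels name the tissue epiblast, and the methods describe the embryo proper, which is epiblast with the visceral endoderm around it. How many embryos went into a library is not given in the sources used here, and with 1 library for each genotype no difference has a replicate check and no p-value is given.

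Aminoacyl-tRNA synthetases attach each amino acid to its tRNA, the step that fixes the reading of the genetic code. One set works in the cytosol, a nuclear-encoded second set works in mitochondria on the tRNAs of the mitochondrial genome, and *Gars* and *Kars* serve both compartments. Part of the cytosolic set is held together with scaffold proteins in the multisynthetase complex. When amino acids run short or the endoplasmic reticulum is stressed, the transcription factor ATF4 is known to raise many cytosolic synthetase genes through short DNA elements near their start sites.

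The values are FPKM, fragments scaled to transcript length and to library size, so they can be compared between genes but are relative to the rest of each library. From the spacing of low values, 1 FPKM on a transcript of 1 kb stood for about 13.8 fragments in wild type, 19.3 in tw18/+ and 19.2 in tw18/tw18. The same FPKM thus rested on the fewest fragments in the wild-type library. *Ppp2r1a* (chr17:20945311-20965916, GRCm38) was at 146 FPKM in wild type, 81.7 in tw18/+ and 12.8 in tw18/tw18, so tw18/+ held 55.9% and tw18/tw18 8.72% of the wild-type value. The order follows the labels, but the tw18/tw18 value is above 0 for a deleted gene. It stands beside a rise of markers listed for other cell types, given next. Where the *Ppp2r1a* fragments in tw18/tw18 came from was not tested. The summed FPKM of 10 epiblast markers was 2215 in wild type, 2375 in tw18/+ and 1142 in tw18/tw18, and all 10 were lower in tw18/tw18 than in wild type. In the same order, 10 visceral endoderm markers summed to 855, 840 and 1092 (9 of 10 above wild type in tw18/tw18), 7 of extra-embryonic ectoderm to 32.5, 25.6 and 59.1 (7 of 7 above), and 6 of endothelium to 38.5, 25.2 and 88.3 (6 of 6 above). The 4 erythroid markers used here summed to 52.5, 56.3 and 177, with 3 above and 1 below wild type in tw18/tw18. The 9 markers of decidua and stroma summed to 1637, 292 and 912, with 8 above wild type in tw18/tw18, while *Prl8a2*, the most abundant of them, fell from 1504 in wild type to 155 in tw18/+ and 377 in tw18/tw18. The study also reports *Bmp2*, *Hand2* and *Eng*, which are on these lists, as raised in the mutant. It counts *Hand2* among lateral mesoderm regulators and ties *Eng* to extra-embryonic mesoderm and vasculogenesis. The marker levels thus differed between the libraries. With 1 library for each genotype, an effect of genotype and a difference in dissection cannot be told apart. The part of the markers in the results on the synthetases was not tested. In such bulk samples fewer cells of a type and less RNA per cell cannot be told apart either.

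The ATF4 response element was searched as TGATGNAA (N any base) on both strands of the RefSeq promoters of GRCm38.p6, each from 250 bases before to 50 bases after the start site. The table held a promoter for 27 of the 37 synthetases, and 5 of the 27 (18.5%) had the element, against 1219 of 27025 genes (4.51%). All 5 are on the cytosolic list, although *Gars* serves both compartments. How many of the 27 are on that list was not counted. A window of 30 bases around the match nearest to the start site of each gene is shown because these genes share a described regulator, with the element in capitals (TTNCATCA where it lies on the opposite strand), and each is written in the direction of its gene.
*Aars*, alanyl, chr8:111033840-111033869 (+), centred 13 bases after the start: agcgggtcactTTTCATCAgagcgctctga
*Gars*, glycyl, chr6:55037960-55037989 (+), centred 26 bases before the start: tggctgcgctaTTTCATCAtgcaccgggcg
*Iars*, isoleucyl, chr13:49682126-49682155 (+), centred 11 bases after the start: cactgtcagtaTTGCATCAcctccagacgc
*Tars*, threonyl, chr15:11399655-11399684 (-), centred 11 bases before the start: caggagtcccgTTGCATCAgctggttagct
*Yars*, tyrosyl, chr4:129189895-129189924 (+), centred 7 bases after the start: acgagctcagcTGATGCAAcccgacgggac
A match is a description of these letters only.

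Across the synthetases other than *Lars2* the differences between genotypes were small. Between tw18/tw18 and wild type, 2 of the 37 genes (5.41%) reached a 2-fold difference, *Lars2* and *Yars2*, both lower in tw18/tw18, against 22.0% of all genes that had 1 FPKM or more in either library (6.94% lower and 15.1% higher). *Lars2* was singled out for this very value, and without it the count was 1 of 36 (2.78%). With a threshold of 1.5-fold, 6 synthetases passed against 40.2% of all genes, of which *Aars2*, *Lars2*, *Mars*, *Tarsl2* and *Yars2* were lower (13.5%, or 11.1% of the 36 without *Lars2*, against 16.0% of all genes) and *Fars2* was higher (2.7%, against 24.1%). Irrespective of size, 29 of the 36 synthetases with values in both libraries were below wild type, against 52.9% of all genes. This count depends on the scale. With equal FPKM sums it was 19 of 36, against 4177 of 11069 genes, and with equal sums without *Lars2* 22 of 36, against 4489 of 11069. Between tw18/+ and wild type 1 synthetase, *Tarsl2*, passed 2-fold (2.7%, against 9.72% of all genes), and between tw18/tw18 and tw18/+ the 1 that did was *Lars2* (2.7%, against 20.5%), so that 0 of the other 36 passed. At 1.5-fold *Mars2* and *Tarsl2* passed in tw18/+ against wild type (20.1% of all genes in either direction), both lower (10.3% of all genes), and 0 synthetases were higher (9.78%). In tw18/tw18 against tw18/+, 4 passed 1.5-fold (39.5%), with *Kars*, *Lars2* and *Yars2* lower (15.2%) and *Fars2* higher (24.3%). Both comparisons with wild type share that library, and both with tw18/tw18 share the other. The median size of the log2 ratio of tw18/tw18 against wild type, whatever its sign, was 0.29 over the 36 synthetases other than *Lars2*, against 0.39 over all genes that had 1 FPKM or more in every library and 0.33 over those with a mean FPKM of at least 10. For tw18/+ against wild type the same medians were 0.13, 0.20 and 0.15.

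**Figure D1:**
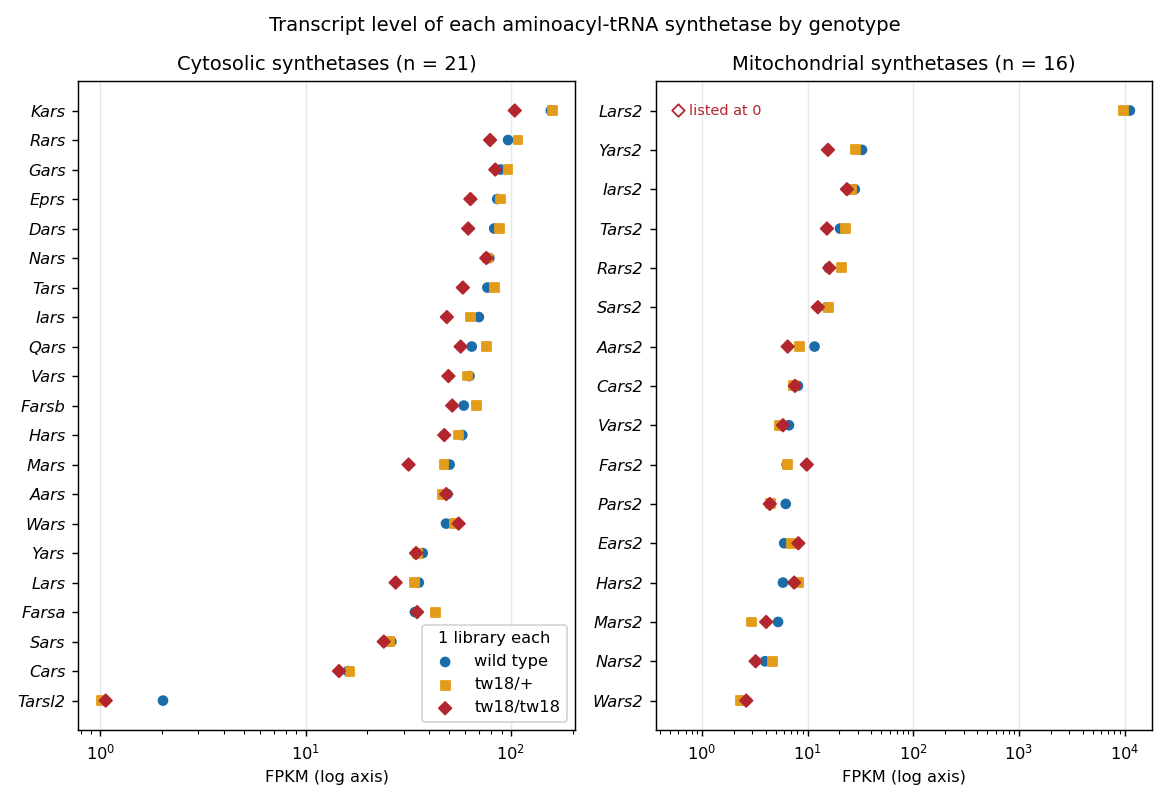
FPKM (log axis) of the 21 cytosolic and 16 mitochondrial aminoacyl-tRNA synthetases in the wild-type (circle), tw18/+ (square) and tw18/tw18 (diamond) library, 1 point per library. *Lars2* stands at 11199 in wild type and 9689 in tw18/+ and is listed at 0 in tw18/tw18 (open diamond), while the other mitochondrial enzymes lie between 2.30 and 32.7.

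*Lars2* encodes the leucyl-tRNA synthetase of mitochondria and lies at chr9:123366927-123462666 (plus strand, 21 exons). It was at 11199 FPKM in wild type and 9689 in tw18/+, a log2 ratio of -0.21, and the tw18/tw18 value in the table is 0. In both libraries with a value it exceeded the second gene, *Eef1a1*, which encodes the elongation factor that brings charged tRNA to the ribosome, by 2.58 and 2.09 times. It stood at 64.2 times the sum of the 15 other mitochondrial synthetases in wild type and at 56.7 times in tw18/+. The value corresponds to about 4.36% of the fragments of the wild-type library and 3.77% of those of tw18/+. These shares assume that FPKM was scaled to the fragment total of each library, which is not given in the sources used here. *Lars*, the cytosolic leucyl enzyme, had an FPKM of 35.6, 33.8 and 27.4 in wild type, tw18/+ and tw18/tw18, so that *Lars2* was the 1 mitochondrial gene above its cytosolic counterpart. No fold change is given for *Lars2* in tw18/tw18, since an exact 0 in this table can be a failed estimate.

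Few genes had this pattern. Of 5739 genes that had 10 FPKM or more in both wild type and tw18/+, 2 were listed at 0 in tw18/tw18, *Lars2* and *Cdk8*, a Mediator kinase with 44.5 in wild type and 34.1 in tw18/+. *Actr3*, an actin nucleator, was the 1 gene of 5584 that was listed at 0 in wild type alone (81.5 in tw18/+ and 76.8 in tw18/tw18). *Dnmt3a*, a DNA methyltransferase, was the 1 of 5582 listed at 0 in tw18/+ alone (35.1 in wild type and 24.2 in tw18/tw18). Each library thus had at least 1 such zero beside values of ordinary genes, and what lies behind the zero of *Lars2* was not tested.

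*Lars2* was searched for exact 50 bp words that it shares with other genes. Of the words of *Lars2*, 0.196% occur in another GENCODE transcript, 0.169% in *Gm47414*. The search could find neither near-identical sequence nor sequence outside that annotation, so sharing of those kinds was not tested. The longest identical run with *Gm15564* (chr16:35966752-35983230) is 52 bases, at chr9:123462048-123462099 in the 3′ untranslated region of *Lars2* (chr9:123461679-123462664, 986 bases). The ribosomal RNA gene *Rn45s* and the small RNA gene *Rn4.5s* are listed at 0 in each of the 3 libraries. They were the 2 measured of 6 symbols looked up for ribosomal RNA. Whether such RNA was counted at all is not given in the sources used here, so these zeros say nothing on the value of *Lars2*. Where on the gene the fragments of *Lars2* lay cannot be read from a table of gene values.

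The 21 cytosolic synthetases had a median FPKM of 58.9 in wild type, 61.3 in tw18/+ and 49.6 in tw18/tw18, and summed to 1279, 1327 and 1053. Their median log2 ratio was -0.29 in tw18/tw18 against wild type, where the median of all genes was -0.04, and 0.02 in tw18/+ against wild type, where that of all genes was 0.00. In tw18/tw18, 19 of the 21 were below wild type, against 52.9% of all genes. Below both other libraries were 17 (81.0%), against 44.3% of all genes. Of the 21, 20 had a mean FPKM of at least 10, and 17 of those were below both, against 55.5% of such genes. Genes with that mean, and 1 FPKM or more in every library, had a median log2 ratio of -0.15 in tw18/tw18 against wild type. The scale decides part of this, since rescaling the libraries to equal FPKM sums raised each log2 ratio of tw18/tw18 against wild type by 0.21. It left 11 of 21 below wild type, against 4177 of 11069 genes, and 9 (42.9%) below both, against 27.9%. The median of the list was then -0.08 and that of all genes 0.16.

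None of the 8 synthetases of the multisynthetase complex passed 2-fold in tw18/tw18 against wild type, against 22.0% of all genes. At 1.5-fold 1 of the 8 (*Mars*) was lower, against 16.0% of all genes. Their median log2 ratio was -0.43, and each was below both other libraries, as were the 3 scaffold genes. With equal FPKM sums 7 of the 8 enzymes (not *Qars*) and 9 of all 11 genes (neither *Qars* nor *Aimp1*) stayed below both, against 27.9% of all genes on that scale and 44.3% as deposited. All 11 had a mean FPKM of at least 10, and of such genes 55.5% were below both as deposited. Those with 1 FPKM or more in every library had a median log2 ratio of -0.15 in tw18/tw18 against wild type. The 13 cytosolic synthetases outside the complex had a median of -0.12, and the difference between the medians was not tested.

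Within the complex, *Kars* (lysyl) was the most abundant of the 37 genes after *Lars2*, at 157 FPKM in wild type, 159 in tw18/+ and 104 in tw18/tw18, a log2 ratio of -0.58 in tw18/tw18 against wild type and -0.61 against tw18/+. *Mars* (methionyl, the enzyme that charges the initiator tRNA as well) had 50.3, 47.2 and 31.7, a log2 ratio of -0.66 for tw18/tw18 against wild type with a 95% counting interval of -0.76 to -0.57. Counting intervals cover the sampling of fragments only and not the spread between embryos. *Iars* (isoleucyl) had 69.8, 63.6 and 48.7, and *Eprs*, which joins the glutamyl and prolyl enzymes in 1 protein, had 85.7, 88.5 and 63.5. As deposited, these 4 genes were within 10% of wild type in tw18/+ and below it in tw18/tw18. With equal FPKM sums all 4 stayed below wild type in tw18/tw18.

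The aspartyl gene *Dars* was at 82.9 FPKM in wild type, 87.6 in tw18/+ and 61.9 in tw18/tw18, and *Rars* (arginyl) had 96.8, 108 and 79.1. *Qars* (glutaminyl) had 64.4, 76.1 and 56.9. In these 3 genes tw18/+ was the highest library. Of the scaffold genes, *Aimp1* had 67.1, 59.2 and 51.7, *Aimp2* had 66.5, 61.2 and 44.2, and *Eef1e1*, which encodes the third scaffold protein (AIMP3), had 46.0, 52.0 and 33.3.

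The cytosolic genes outside the complex ran from -0.93 (*Tarsl2*) to 0.20 (*Wars*) in the log2 ratio of tw18/tw18 against wild type, those inside it from -0.66 (*Mars*) to -0.18 (*Qars*). *Aars*, *Gars* and *Yars*, with the ATF4 element in the windows printed above, had values of 49.0, 46.4 and 48.4 for *Aars*, 89.0, 96.7 and 83.9 for *Gars* and 37.2, 35.2 and 34.5 for *Yars* in wild type, tw18/+ and tw18/tw18. *Tars*, which has the element too, had 76.8, 83.3 and 58.3, a log2 ratio of -0.40 in tw18/tw18 against wild type, and *Iars* had -0.52. All 5 genes with the element were lower in tw18/tw18 than in wild type, against 52.9% of all genes. With equal FPKM sums *Iars* and *Tars* stayed lower, against 4177 of 11069 genes, and the other 3 were higher. These counts were not tested.

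*Nars* (asparaginyl) was nearly level at 78.5 in wild type, 76.8 in tw18/+ and 75.8 in tw18/tw18. *Wars* (tryptophanyl, also a gene of the interferon response) was the 1 cytosolic synthetase with its highest value in tw18/tw18, at 48.3, 52.9 and 55.6, a log2 ratio of 0.20 against wild type. The phenylalanyl enzyme is built from 2 gene products, and *Farsa* had 34.0, 43.1 and 34.9 while *Farsb* had 58.9, 67.7 and 51.8, so both were highest in tw18/+. *Vars* (valyl) had 62.8, 61.3 and 49.6, *Hars* (histidyl) had 58.0, 55.7 and 47.4, *Sars* (seryl) had 26.1, 25.7 and 24.01, and *Cars* (cysteinyl) had 16.0, 16.4 and 14.5. All 4 were lowest in tw18/tw18 as deposited.

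*Tarsl2*, a second cytosolic threonyl-tRNA synthetase (chr7:65644898-65692091), was the lowest cytosolic gene, at 2.02 FPKM in wild type, 1.01 in tw18/+ and 1.06 in tw18/tw18. Its log2 ratio against wild type was -1.003 in tw18/+ (95% counting interval -1.50 to -0.53) and -0.93 in tw18/tw18 (-1.42 to -0.45). These values rest on about 89, 62 and 65 fragments, and with a pseudocount of 1 the log2 ratio of tw18/+ was -0.59. *Tarsl2* was the 1 synthetase past 2-fold in tw18/+, and its values there and in tw18/tw18 differed by less than counting error.

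**Figure D2:**
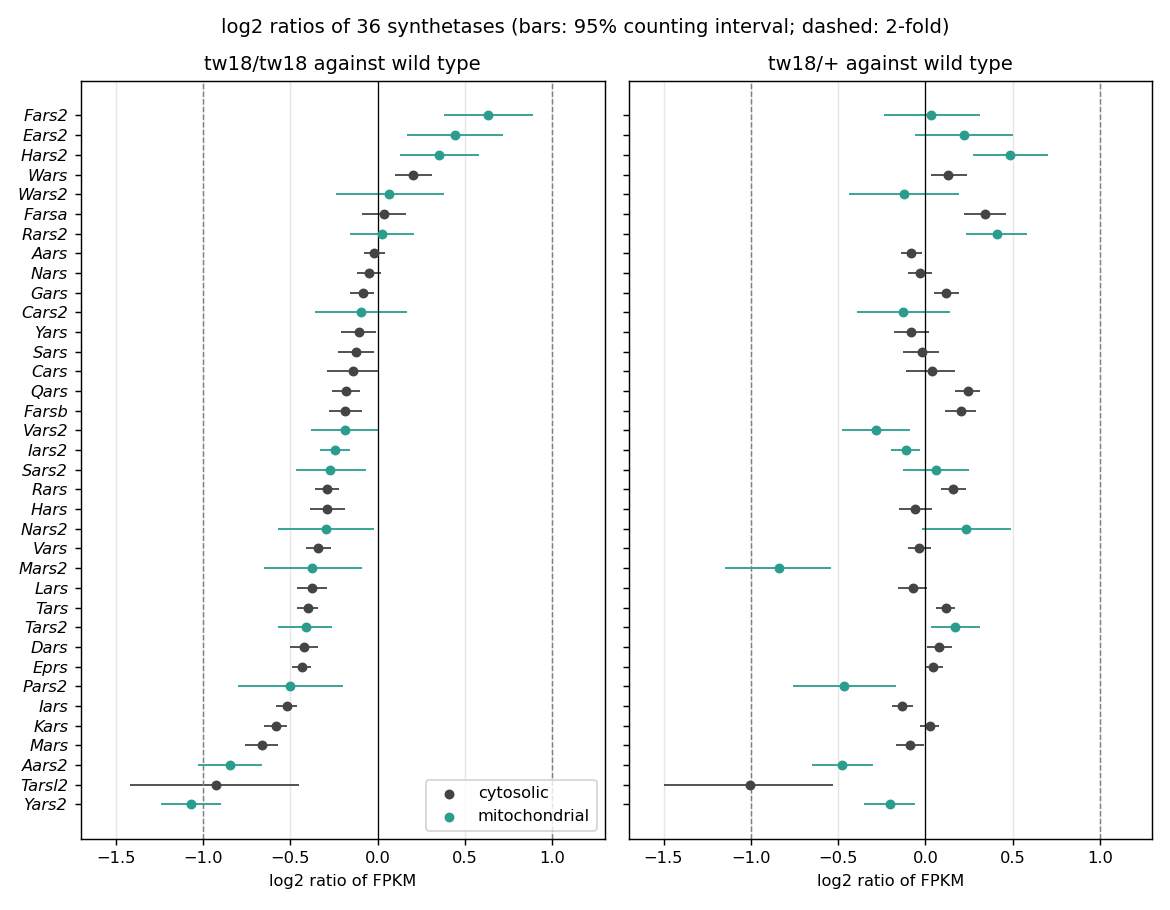
log2 ratio of FPKM for the 36 synthetases other than *Lars2*, in tw18/tw18 against wild type (left) and tw18/+ against wild type (right), with bars for the 95% counting interval and dashed lines at 2-fold. On the left 29 of 36 points lie below 0 as deposited (19 of 36 would with equal FPKM sums), and *Yars2* (-1.07) is past 2-fold. On the right the points gather near 0, with *Tarsl2* (-1.003) and *Mars2* (-0.84) lowest.

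Apart from *Lars2*, the mitochondrial synthetases were expressed at a lower level than the cytosolic ones, with a median FPKM of 6.66 in wild type, 7.40 in tw18/+ and 7.58 in tw18/tw18. Their median log2 ratio in tw18/tw18 against wild type was -0.25 over 15 genes, where that of all genes was -0.04. Of the 15, 10 were below wild type, against 52.9% of all genes, and 5 were above. Below both other libraries were 7 (46.7%), against 44.3% of all genes. With equal FPKM sums the median was -0.03 and 8 of 15 were below wild type. On that scale all genes had a median of 0.16, with 4177 of 11069 below wild type. In tw18/+ against wild type the median over the 16 genes was -0.12.

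*Yars2*, the mitochondrial tyrosyl enzyme (chr16:16302965-16309640), was at 32.7 FPKM in wild type, 28.4 in tw18/+ and 15.6 in tw18/tw18, from about 708, 863 and 470 fragments. Its log2 ratio in tw18/tw18 was -1.07 against wild type (95% counting interval -1.24 to -0.90) and -0.87 against tw18/+. With equal FPKM sums it was -0.86 against wild type, under the 2-fold threshold and in the same direction. *Yars2* was the highest mitochondrial synthetase after *Lars2* in wild type and tw18/+, while *Iars2* was in tw18/tw18.

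*Aars2* (alanyl) lies on Chr 17 at chr17:45506841-45520843, 24.5 Mb distal to *Ppp2r1a*. It had 11.6 in wild type, 8.36 in tw18/+ and 6.48 in tw18/tw18, a log2 ratio of -0.48 in tw18/+ and -0.85 in tw18/tw18 against wild type, so that tw18/+ stood between the homozygotes. The other synthetase genes on Chr 17, *Vars* and *Vars2* (14.0 and 14.7 Mb distal to *Ppp2r1a*), had log2 ratios of -0.34 and -0.19 in tw18/tw18. *Vars2* (valyl) had an FPKM of 6.66, 5.46 and 5.85 in wild type, tw18/+ and tw18/tw18.

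*Fars2* (phenylalanyl, chr13:36117412-36726280) was the synthetase that was highest in tw18/tw18 relative to wild type, with 6.34 in wild type, 6.47 in tw18/+ and 9.83 in tw18/tw18. The log2 ratio was 0.63 (95% counting interval 0.38 to 0.89), a fold of 1.55. Of its 50 bp words 7.73% lie in *Nrn1* on the opposite strand, and the counting of strand is not given in the sources used here. *Ears2* (glutamyl) had 6.002, 6.995 and 8.16, a log2 ratio of 0.44, and *Hars2* (histidyl) had 5.84, 8.18 and 7.46, a log2 ratio of 0.35. *Ears2* was also highest in tw18/tw18, while *Hars2* was highest in tw18/+.

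*Mars2* (methionyl) was lowest in tw18/+, at 5.25 in wild type, 2.93 in tw18/+ and 4.05 in tw18/tw18, and its log2 ratio in tw18/+ against wild type was -0.84. *Pars2* (prolyl) had 6.21, 4.49 and 4.39, with both mutant libraries below wild type. *Tars2* (threonyl) had 20.3, 22.8 and 15.2, *Sars2* (seryl) had 15.1, 15.7 and 12.5, *Iars2* (isoleucyl) had 27.9, 25.8 and 23.5 and *Nars2* (asparaginyl) had 3.95, 4.64 and 3.22. These last 4 were lowest in tw18/tw18, and *Iars2* shares 22.7% of its words with other genes, chiefly *Rab3gap2* on the opposite strand.

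*Rars2* (arginyl) had 15.8, 20.9 and 16.0, *Cars2* (cysteinyl) had 8.10, 7.40 and 7.58, and *Wars2* (tryptophanyl), the lowest of the mitochondrial genes, had 2.51, 2.30 and 2.63, a log2 ratio of 0.07 in tw18/tw18 against wild type. In all 3 genes tw18/tw18 was within 10% of wild type.

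**Figure D3:**
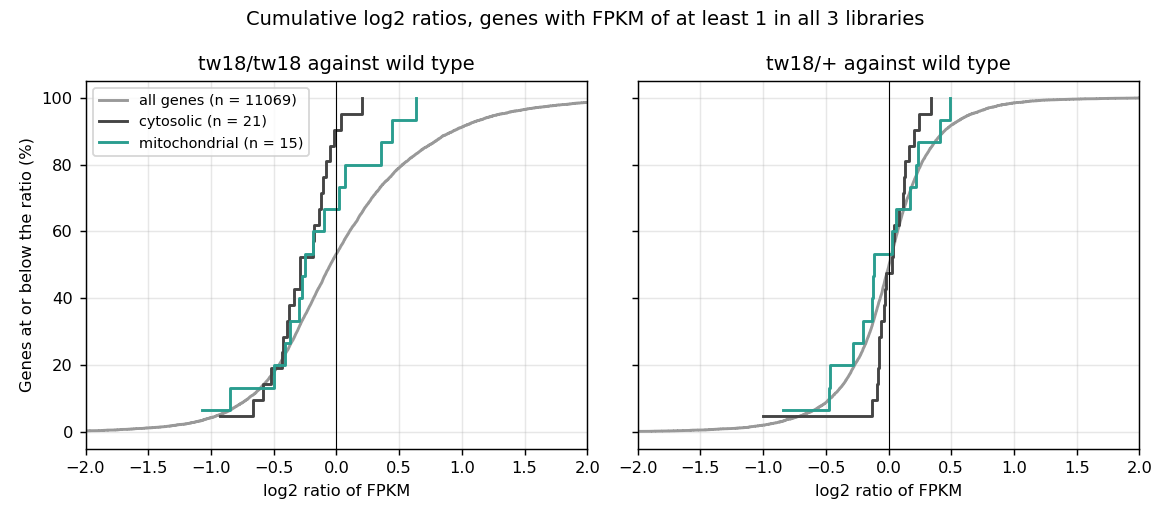
Percent of genes at or below each log2 ratio of FPKM, for tw18/tw18 (left) and tw18/+ (right) against wild type, over all genes that had 1 FPKM or more in every library (n = 11069), the cytosolic synthetases (n = 21) and the mitochondrial synthetases other than *Lars2* (n = 15). On the left the cytosolic line rises between about -0.93 and 0.20 and lies to the left of all genes over most of its height, with a median of -0.29 against -0.05, and on the right the medians are 0.02 and 0.00.

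Taking the 36 genes with a value in each library, 24 were lower in tw18/tw18 than in both other libraries, against 44.3% of the 11069 genes that had 1 FPKM or more in each library, and 4 were higher than both, against 38.0%. More abundant genes were lower more often in general, and of the 25 synthetases other than *Lars2* with a mean FPKM of at least 10, 21 were lower than both, against 55.5% of 6230 genes. With equal FPKM sums 14 of the 36 were lower than both, against 27.9%. Class I and class II enzymes, which have unrelated catalytic folds, had medians of -0.22 (18 genes without *Lars2*) and -0.28 (18 genes).

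Setting each cytosolic enzyme beside its mitochondrial counterpart for the same amino acid removes the scale of a library, since both values come from 1 library. The cytosolic gene was the higher one in all 14 pairs other than *Lars* and *Lars2*, in each library, with *Farsa* taken for the phenylalanyl pair. The ratio ran from 1.14 (*Yars* over *Yars2*) to 19.8 (*Nars* over *Nars2*) in wild type, with a median of 5.75, and the medians were 6.10 in tw18/+ and 5.64 in tw18/tw18. Between wild type and tw18/tw18 the ratio was lower in 8 pairs and higher in 6, with a median log2 change of -0.10.

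Single pairs moved further than the median. The ratio of *Yars* over *Yars2* was 1.14 in wild type, 1.24 in tw18/+ and 2.21 in tw18/tw18, and that of *Aars* over *Aars2* was 4.22, 5.55 and 7.47. In both pairs the mitochondrial gene was lower in tw18/tw18 and the cytosolic gene was nearly level. The ratio of *Eprs* over *Ears2* was 14.3, 12.7 and 7.77, and that of *Farsa* over *Fars2* was 5.37, 6.65 and 3.55, the opposite direction. *Lars* over *Lars2* was 0.00318 in wild type and 0.00349 in tw18/+ and has no value in tw18/tw18.

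**Figure D4:**
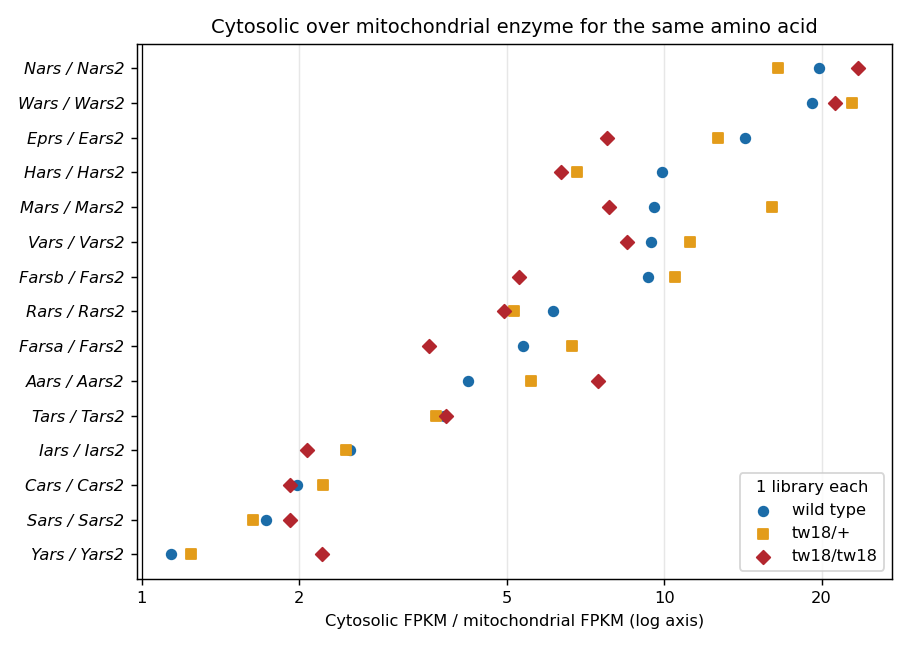
Ratio of the FPKM of the cytosolic over the mitochondrial enzyme for the same amino acid (log axis) in each library, with *Farsa* and *Farsb* each set against *Fars2* and the pair of *Lars* and *Lars2* left out. All points shown are above 1, and *Yars* over *Yars2* moves from 1.14 in wild type to 2.21 in tw18/tw18, *Eprs* over *Ears2* from 14.3 to 7.77.

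Genes of neighbouring functions were compared in the same way. Of the 21 genes of the ATF4 response in the table, 19 reached 1 FPKM in wild type or tw18/tw18, and in tw18/tw18 against wild type 1 was higher (5.26%, against 15.1% of all genes) and 2 were lower by 2-fold (10.5%, against 6.94%), with a median log2 ratio of -0.12. *Atf4* itself had 74.2 in wild type, 53.2 in tw18/+ and 48.9 in tw18/tw18. *Asns*, the asparagine synthetase gene and an ATF4 target, had 44.1, 41.5 and 65.8, the opposite direction. The gene that passed upwards was *Ddit4*, an inhibitor of mTORC1, at 5.33, 4.09 and 11.1, and those that passed downwards were the transcription factor gene *Ddit3*, at 2.24, 0.893 and 0.958, and the stress gene *Nupr1*, at 2.198, 2.82 and 0.833.

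Of 14 mitochondrial translation factors measured, 2 were lower by 2-fold in tw18/tw18 than in wild type (14.3%, against 6.94% of all genes) and 0 were higher (against 15.1%), with a median of -0.27. *Mrrf*, which recycles mitochondrial ribosomes, had 14.5 in wild type, 9.93 in tw18/+ and 6.95 in tw18/tw18, and *Mtrf1*, a mitochondrial release factor, had 7.19, 5.74 and 2.88. Their log2 ratios in tw18/tw18 against wild type were -1.06 and -1.32. With equal FPKM sums, which raised each by 0.21, only *Mtrf1* stayed past 2-fold. The elongation factor *Tufm*, which carries charged tRNA to the mitochondrial ribosome, had 107, 102 and 78.5. In these 3 genes tw18/+ lay between the others.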

How the data were processed

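RNA of E6.5 embryos (1 wild-type, 1 tw18/+ and 1 tw18/tw18 library) was made into libraries with the TotalScript kit and read as 50 bp paired ends. TopHat mapping to mm10 (GRCm38) and Cuffdiff, both run by the authors, gave the deposited FPKM values of 23421 symbols. The submitters' processing notes also name Bowtie 1.0.0 and Cufflinks 2.2.1. The annotation, library normalization and strand setting are not given in the sources used here.

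The members and gene lists were chosen with earlier results of these data known. Every member is named with its FPKM. Log2 ratios were required for those past the threshold, listed at 0, or among the 5 largest increases and decreases of log2(FPKM + 1) in tw18/tw18 against wild type, and are given for others as examples. Genes like *Lars2* were those listed at 0 in 1 library with at least 10 in both others. A call needs a log2 ratio of 1 or more, up or down, with no pseudocount and the higher FPKM at least 1, and a value of 0 counts where the other is at least 1. List medians use genes that reached 1 FPKM in both libraries. Alternatives were pseudocounts of 0.1 and 1, other filters and folds, centring, and equal FPKM sums with and without *Lars2*.

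Depth came from the spacing of FPKM times transcript length in 2621 genes with 1 transcript, where 83.1% to 87.1% of 136 to 263 low values were whole fragments to within 0.2. Counting intervals (95%) use these approximate fragments and cover counting error only, since PCR copies are not independent molecules. Positions and shared 50 bp words came from GENCODE M21, promoters from RefSeq (GRCm38.p6). Scripts (Python 3.11.15, numpy 2.4.6, pandas 2.3.3) were tested on simulated data. Some items are not reported here.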

Additional observations from a re-analysis of the deposited data

How the results depend on the processing

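With 1 library for each genotype, no result could be recomputed without a replicate. No paired analysis was possible because each group is 1 library and no result comes from a test. The number of synthetases past the threshold in tw18/tw18 against wild type (2) was 1 with equal FPKM sums, with and without *Lars2*, 6 at 1.5-fold and 1 at 4-fold. In tw18/+ against wild type it was 1, and it was 0 with a pseudocount of 1 or 0.1, with an FPKM of at least 5 or at 4-fold, and 2 at 1.5-fold, while in tw18/tw18 against tw18/+ it went from 1 to 4 at 1.5-fold. Without *Lars2*, an alternative chosen after seeing the data, the numbers were 1, 1 and 0. The median log2 ratio of the cytosolic synthetases in tw18/tw18 was -0.079 with equal FPKM sums and -0.116 with equal sums without *Lars2* against wild type, and -0.056 and -0.087 against tw18/+. That of the mitochondrial synthetases was -0.035 and -0.072 against wild type and turned to 0.114 and 0.083 against tw18/+. In tw18/+ against wild type the cytosolic median turned from 0.02 to -0.01 and -0.016. With equal sums without *Lars2* the cytosolic synthetases summed to 1289 in tw18/+ and 1189 in tw18/tw18, and the mitochondrial ones other than *Lars2* to 166 and 161. *Yars2* in tw18/tw18 fell under the threshold at -0.86 and -0.89 with those 2 scalings, and *Tarsl2* in tw18/+ at -0.59 and -0.94 with pseudocounts of 1 and 0.1. The other 541 recomputed log2 ratios of single synthetases kept their direction where called, and their side of the threshold. The scalings move all genes of a library alike, and a pseudocount moves low genes most. Depth limits the low genes most, *Tarsl2* above all, and a background of genes with a mean FPKM of at least 10 was chosen after seeing the data.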

Other observations

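Of the 11 genes for tRNA editing, maturation and export, 2 were lower by 2-fold in tw18/tw18 than in wild type (18.2%, against 6.94% of all genes) and 0 were higher (against 15.1%). *Trnt1*, which adds the CCA end that every tRNA needs before it can be charged, was at 27.3 FPKM in wild type, 19.3 in tw18/+ and 13.4 in tw18/tw18, a log2 ratio of -1.02. *Dtd1*, which removes D-amino acids from mischarged tRNA, had 19.6, 16.2 and 9.06, a log2 ratio of -1.12. In both genes tw18/+ lay between the homozygotes. Equal FPKM sums raised each log2 ratio of tw18/tw18 against wild type by 0.21, which left both genes under 2-fold. On that scale 6 of the 11 were below wild type, against 4177 of 11069 genes. As deposited 7 were, against 52.9% of all genes. *Xpot*, the exporter of tRNA from the nucleus, had 31.2, 32.0 and 24.9.

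Of the 6 cytosolic elongation factor genes, 5 reached 1 FPKM, and all 5 were lower in tw18/tw18 than in both other libraries (against 44.3% of all genes). All 5 had a mean FPKM of at least 10, and of such genes 55.5% were lower than both. With equal FPKM sums 4 of the 5 were, against 27.9%. Their median log2 ratio was -0.36 against wild type, with 0 past 2-fold, against 22.0% of all genes. Genes with a mean FPKM of at least 10, and 1 FPKM or more in every library, had a median of -0.15. *Eef1b2*, which reloads the factor that carries charged tRNA, had 304 in wild type, 307 in tw18/+ and 203 in tw18/tw18, and *Eef1a1* had 4339.65, 4633 and 3653.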
